A study of Arabidopsis thaliana with 6 samples.

Results

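Transposable element (TE) fragments that carried RNA in every library were chosen from the fragment table of an RNA-seq comparison of tsk-4 and Col seedlings of Arabidopsis thaliana. A fragment entered when its value was above 0 in all 6 libraries, and 1614 of the 31189 annotated fragments did so (5.175%). They were 27.93% of the 5778 fragments above 0 in at least 1 library. Another 2220, 764, 516, 345 and 319 fragments were above 0 in exactly 1, 2, 3, 4 and 5 libraries. The study measured total RNA of whole seedlings at 7 days in 3 libraries of tsk-4, a mutant of TONSOKU (TSK), and 3 libraries of the wild-type ecotype Col. No treatment is given for either genotype, and the labels state neither what the tsk-4 allele alters nor whether libraries came from separate plants. The p-values below therefore describe the spread between these libraries, which may be technical.

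TEs are mobile or once mobile DNA, and plant genomes hold both whole elements and many short remnants of old insertions. In Arabidopsis most copies lie in the pericentromeric heterochromatin, where DNA methylation, H3K9 methylation and the histone variant H2A.W keep them silent, and others lie among genes on the chromosome arms. A read assigned to a remnant can come from the element's own transcription or from a longer transcript that runs through it, and the deposited values cannot tell these apart. TSK is known for its work at replication forks, where it helps repair newly copied DNA.

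The targeted gene was lower in the mutant, with TSK at 0.903 ± 0.0657 TPM in tsk-4 and 3.62 ± 0.234 TPM in Col (SD, n = 3 each; limma adjusted p = 0.00097). TPM, transcripts per 1000000, is a count scaled for length and library, and each deposited table was scaled on its own. Whole reads were recovered from the steps of the TPM values, together with the length of each fragment. The fragment table held 158373 to 168180 reads per library in tsk-4 and 157673 to 165250 in Col, beside 14418394 to 14946295 reads in tsk-4 and 13726929 to 14934533 in Col in the gene table. In a fragment of 1 kb, 1 read was worth 1.29 to 1.37 TPM. Pairs of libraries of a genotype differed by more than counting error, with a chi-square per degree of freedom of 1.62 to 2.40 over fragments.

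The identity of 53 members could be read from the data, because their reads equalled those of a TE gene in all 6 libraries. Of 201 TE genes above 0 in every library, 53 had such a match, all on the chromosome that the fragment's name gives, and 30 also had the same length. The order of fragment numbers matched the order of TE gene positions on every chromosome. The fewest reads of a match were 10, and the loci named here are among the 30 of equal length. Positions of the other members were not used here.

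The sequences given here belong to the matched loci that the results turn on. They cover 3 copies of the non-coding SADHU retroposon family and both other matched loci that limma called higher in tsk-4. They also cover 2 domesticated transposase genes that were not called. They are 120 bases of each locus, 5′ to 3′ on the strand of the TE gene, from the TAIR10.1 reference. For the SADHU copies, AT3G43690 and AT5G20880 they are the first bases of the locus, and for MUG4 and CYTOSLEEPER they begin at the longest open reading frame, with its start codon in capitals.
SADHU3-2 (chr3:14750175-14750294, minus strand): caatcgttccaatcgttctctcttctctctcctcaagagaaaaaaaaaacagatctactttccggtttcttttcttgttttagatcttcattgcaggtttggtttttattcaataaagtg
SADHU7-1 (chr3:4378052-4378171, minus strand): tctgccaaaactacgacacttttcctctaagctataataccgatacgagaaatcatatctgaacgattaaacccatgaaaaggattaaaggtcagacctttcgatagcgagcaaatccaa
SADHU10-1 (chr3:21765879-21765998, plus strand): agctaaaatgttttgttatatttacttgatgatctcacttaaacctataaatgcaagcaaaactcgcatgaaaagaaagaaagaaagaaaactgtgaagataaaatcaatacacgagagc
AT3G43690 (chr3:15598179-15598298, plus strand): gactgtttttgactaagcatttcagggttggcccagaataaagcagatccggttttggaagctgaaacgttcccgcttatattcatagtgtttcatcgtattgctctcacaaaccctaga
AT5G20880 (chr5:7083107-7083226, minus strand): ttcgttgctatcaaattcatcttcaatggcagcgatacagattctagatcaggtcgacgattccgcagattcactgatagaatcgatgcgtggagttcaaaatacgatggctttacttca
MUG4 (chr5:5390457-5390576, plus strand): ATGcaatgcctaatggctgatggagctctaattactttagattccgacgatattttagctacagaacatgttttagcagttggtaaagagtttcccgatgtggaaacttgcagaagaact
CYTOSLEEPER (chr1:5268108-5268227, minus strand): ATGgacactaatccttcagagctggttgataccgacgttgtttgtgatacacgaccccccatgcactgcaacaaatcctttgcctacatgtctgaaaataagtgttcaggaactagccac

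The longest open reading frame from a start codon separated these loci. SADHU3-2, SADHU7-1 and SADHU10-1 held frames of 47, 54 and 49 codons in loci of 895, 1111 and 945 bp, in a family annotated as non-coding. MUG4, a member of the MUSTANG genes derived from Mutator-type transposases, held 597 codons, and CYTOSLEEPER, a relative of hAT-type transposases, held 799. AT3G43690 and AT5G20880, annotated as pseudogenes with no named product, held 539 and 272 codons. Over the 30 loci of equal length the longest frame ranged between 47 and 1213 codons with a median of 458.5, and 20 loci held a frame of at least 300 codons. The SADHU copies were 73.7% to 76.5% identical over the 752 to 908 bases paired in pairwise alignments. Positions opposite a gap were not counted.

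SADHU3-2 had the largest log2 change of the matched loci, higher in tsk-4, and its relatives did not pass the test. The fragment AT3TE60310, which is SADHU3-2 (AT3G42658, chromosome 3, 14749400 to 14750294), measured 81.7, 57.9 and 70.1 TPM in tsk-4 1, 2 and 3 and 3.05, 8.66 and 2.94 TPM in Col 1, 2 and 3. The groups lay far apart, with 142 reads in tsk-4 and 10 in Col. Its log2 change, like those of all fragments a difference of mean log2(TPM + 0.5) between tsk-4 and Col, was 3.85 ± 0.58 (SE; limma adjusted p = 0.024). It was not called by limma without a level filter (adjusted p = 0.073) or with replicate number in the model (adjusted p = 0.16). On reads it was called (limma-voom adjusted p = 0.00012). The reference notes that this SADHU allele is methylated and silent in some natural accessions. SADHU7-1 (AT3TE18450, AT3G13438) measured 430.2, 427 and 393 TPM in tsk-4 and 388, 345 and 378 TPM in Col. Its groups did not overlap, with a log2 change of 0.17 (limma adjusted p = 0.59). SADHU10-1 (AT3TE88640, AT3G58865) measured 88.4, 70.7 and 55.3 TPM in tsk-4 and 56.4, 56.1 and 37.7 TPM in Col, and its groups overlapped (log2 change 0.51, limma adjusted p = 0.57). SADHU3-2 was thus the lowest of the 3 copies in Col, and whether its change differs from those of its relatives was not tested.

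A pair of other matched loci was called higher in tsk-4, with Col levels well above 0. AT3TE63065 is the pseudogene AT3G43690 (chromosome 3, 15598179 to 15600798) and measured 372, 331 and 401 TPM in tsk-4 against 199, 192 and 207 TPM in Col. Its log2 change was 0.88 ± 0.13 (limma adjusted p = 0.024), from 2186 reads in tsk-4 and 1184 in Col. AT5TE25615 is AT5G20880 (chromosome 5, 7082104 to 7083226), with 179, 139.5 and 173 TPM in tsk-4 against 79.1, 63.3 and 73.9 TPM in Col. Its log2 change was 1.18 ± 0.20 (limma adjusted p = 0.033), and quantile normalization ended this call (limma adjusted p = 0.064). In both loci every tsk-4 library lay above every Col library.

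Domesticated transposase genes among the members did not pass the test. MUG4 (AT5TE19520, AT5G16505) averaged 252 ± 8.14 TPM in tsk-4 and 261 ± 9.59 TPM in Col, a log2 change of -0.05 ± 0.12 (SE; limma adjusted p = 0.87). MUG5, MUG6 and MUG2, which are AT3TE09220, AT5TE71450 and AT2TE57160, had log2 changes of 0.11, 0.22 and 0.50 with limma adjusted p between 0.68 and 0.80. Of these, only MUG2 had every tsk-4 library above every Col library. CYTOSLEEPER (AT1TE17030, AT1G15300) averaged 21.8 ± 2.40 TPM in tsk-4 and 30.9 ± 4.23 TPM in Col. Every tsk-4 library lay below every Col library, and its limma adjusted p was 0.65. A run of 5 consecutive TE genes, AT3G21010 to AT3G21050 (chromosome 3, 7366210 to 7376420; AT3TE30960 to AT3TE30980), was read in every library at 4.39 to 33.9 TPM on average per genotype, with limma adjusted p between 0.72 and 0.95. Of the 51 matched members that were tested, limma called 3, namely SADHU3-2, AT3G43690 and AT5G20880, beside 3.95% of all tested fragments, and the median log2 change was 0.10.

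**Figure D1:**
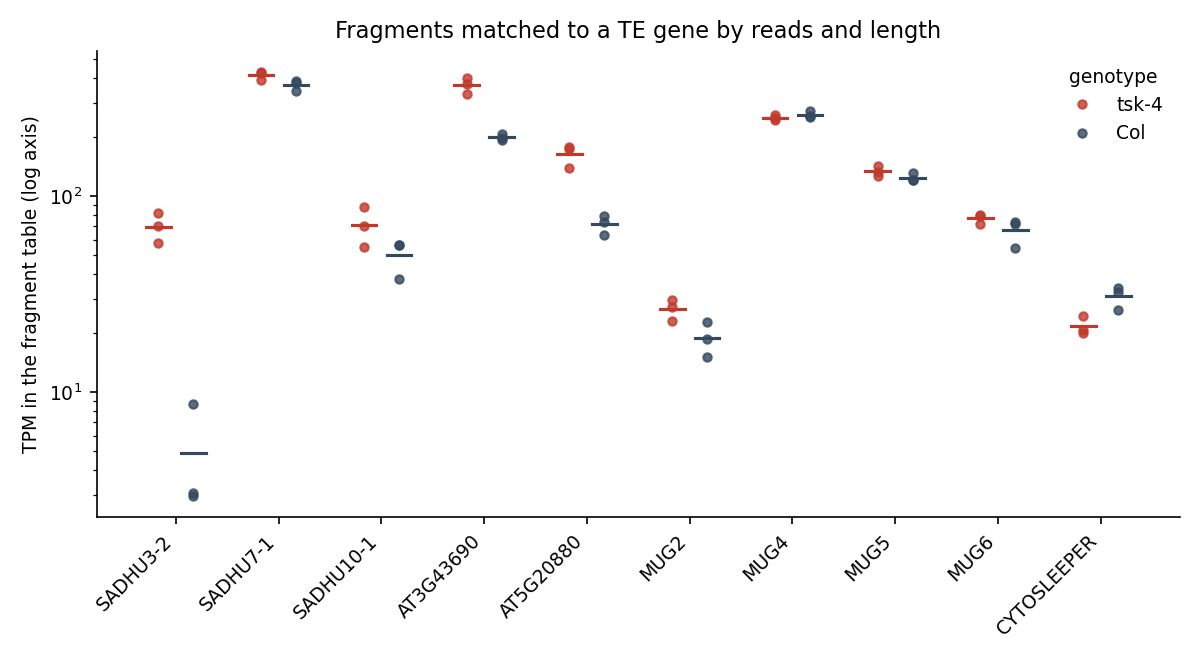
TPM in the fragment table (log axis) of 10 members matched to a TE gene, with a point for each library, tsk-4 left of Col, and a bar at the mean. SADHU3-2 shows the widest gap between the genotypes, AT3G43690 and AT5G20880 are separated at higher levels, and MUG4 and MUG5 lie at similar values in both.

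Levels of the members spanned a wide range and were concentrated in few fragments. The mean over 6 libraries had a median of 98.9 TPM, with quartiles of 23.6 and 404 TPM and a range of 0.168 to 46145 TPM. The single highest fragment held 4.70% of the members' TPM, the 10 highest held 25.3%, the 100 highest 61.1% and the 500 highest 91.8%. Read numbers were modest, since TPM weighs a read in a short fragment more: the median member had 117 reads over the 6 libraries, 484 members (29.99%) had under 50 and 212 (13.1%) had at least 1000. The rule used these levels, so they are given as a description.

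Members were shorter than the other fragments with reads. Their median length was 279.5 bp, with quartiles of 133 and 669.5 bp and a range of 20 to 20351 bp. Fragments above 0 in 1 to 5 libraries had a median of 603 bp, and those above 0 in exactly 1, 2, 3, 4 and 5 libraries had medians of 575.5, 760, 739, 553 and 399 bp. In all, 840 members (52.0%) were under 300 bp and 273 (16.9%) reached 1000 bp. The lengths come from the values themselves and were not checked against an annotation of fragments; among the 53 matched members, 30 had the length of the TE gene.

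**Figure D2:**
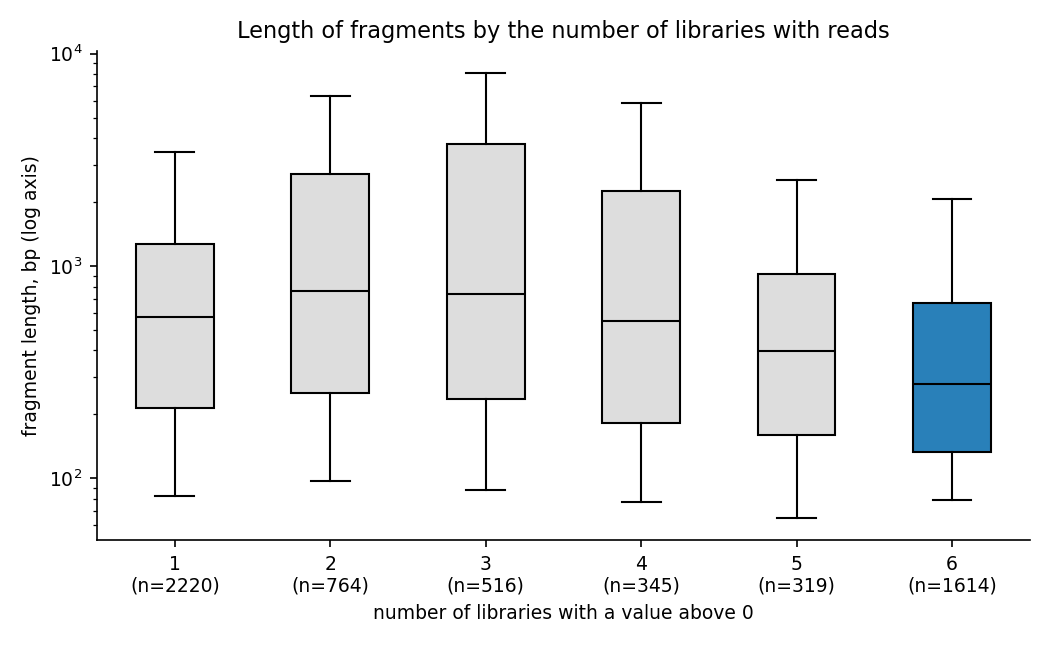
Length of fragments in bp (log axis) by the number of libraries with a value above 0, with n under each box; boxes span the quartiles, lines the medians and whiskers the 10th to 90th percentiles. Fragments above 0 in all 6 libraries have the lowest median, 279.5 bp, and those above 0 in 2 libraries the highest, 760 bp.

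With the chromosomes pooled, members were most frequent near the ends of the numbering. Fragment numbers follow position, as the 53 matched members showed, and the fragments of each chromosome were divided by that order into 10 segments of equal number. Members made up 10.7% of the fragments in segment 1 and 11.4% in segment 10, against 0.802%, 1.41% and 1.96% in segments 4, 5 and 6. Their median level was also highest at both ends, with 139 TPM in segment 1 and 149.7 TPM in segment 10, against 22.4 TPM in segment 5. Single chromosomes departed from this: on chromosome 2 segment 1 held 3.70% members, against 6.22%, 7.39% and 11.1% in segments 8, 9 and 10, and on chromosome 4 segment 1 held 7.46%, against 7.85%, 8.45% and 12.9%. By chromosome, 386, 256, 314, 262 and 396 members lay on chromosomes 1 to 5, which was 5.41%, 4.303%, 4.86%, 5.27% and 5.93% of the fragments there.

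Changes between the genotypes differed little along the numbering for members and widely for other fragments. The median log2 change of members lay between 0.02 and 0.18 in every segment. That of tested fragments that were not above 0 in every library was 1.89, 1.54 and 1.41 in segments 4, 5 and 6 and lay between 0.13 and 0.87 in the others. The rule shapes this contrast, since a fragment silent in either genotype cannot be a member, and 145 fragments were above 0 in all tsk-4 and no Col libraries against 15 in all Col and no tsk-4 libraries. Of the tested members limma called 6 of 332 higher and 2 lower in segment 1, and 8 of 355 higher and 3 lower in segment 10, beside 28 of 1594 higher and 9 lower in all.

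**Figure D3:**
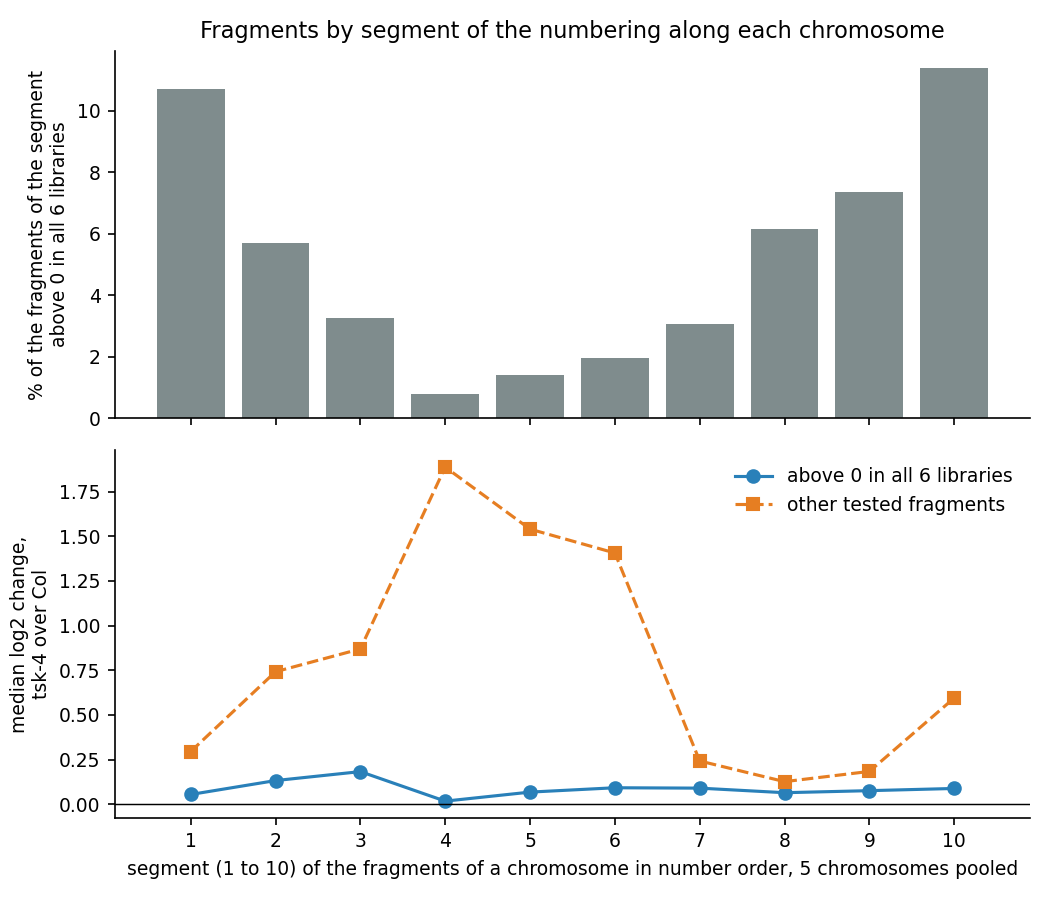
Upper plot, share in percent of the fragments in each of 10 segments of the numbering that were above 0 in all 6 libraries, with the 5 chromosomes pooled; lower plot, median log2 change of tsk-4 over Col for these fragments and for the other tested ones. The share is 10.7% and 11.4% at the ends and 0.802% in segment 4, where the median of other tested fragments is 1.89 and that of members 0.02.

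The pool of members took up nearly all fragment reads in both genotypes, and slightly less of them in tsk-4. They held 97.4%, 97.5% and 97.4% of fragment reads in tsk-4 1, 2 and 3 and 98.6% in each Col library. Per 1000000 reads of the gene table, members had 10872 ± 149 reads in tsk-4 and 11109 ± 210 in Col (SD, n = 3 each), a ratio of 0.979. All other fragments together had 286 ± 10.99 reads per 1000000 in tsk-4 and 158 ± 2.50 in Col, a ratio of 1.81. The number of fragments above 0 was 3221 ± 56.2 in tsk-4 and 2764 ± 6.93 in Col (two-sided exact permutation p = 0.1, the smallest that 3 against 3 libraries allow). The difference in fragments read thus lay outside the members, and the rule itself fixes that they are read in both genotypes.

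Few members were called as different between tsk-4 and Col on TPM. The test was limma with a mean-variance trend over the whole fragment table, on fragments with at least 1 TPM in at least 3 libraries, with a call at a Benjamini-Hochberg adjusted p under 0.05. It included 1594 of the 1614 members, and 20 were too low. It called 28 members higher in tsk-4 (1.76%), where the share over all 2509 tested fragments was 3.07%, and 9 lower (0.565%), where it was 0.877%; over both directions it was 3.95%. Of these 37 members 7 rose and 3 fell by at least 2-fold, and in all 37 the genotypes did not overlap. Among all tested members, 235 had every tsk-4 library above every Col library (14.7%, against 14.5% of all tested fragments) and 128 had every one below (8.03%, against 6.82%). Both shares were near those of all fragments. Every share over all tested fragments can include fragments silent in either genotype, which the rule keeps out of the members. An unadjusted limma p under 0.05 was found in 225 of the 1594 tested members, a count that can include members without a difference. The same share over all tested fragments was not taken. A member that was not called may still differ.

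The bulk of members lay close to no change. The median log2 change was 0.08, with quartiles of -0.23 and 0.41, beside medians of 0.13 over all tested fragments and 0.51 over the 915 tested fragments that were not members. The estimate lay within 2-fold for 1455 members and under 0.5 in size for 1074. Under quantile normalization the median of members was -0.05 and under median-ratio scaling -0.0046, so its sign depends on the scaling. On recovered reads, limma-voom called 42 members higher and 47 lower of 1610, where the shares over all 2138 tested fragments were 4.21% and 2.2%. With fragment TPM rescaled to the gene table's reads the calls were 24 higher and 16 lower among members, beside 71 and 29 among all tested fragments. Calls by limma on TPM and by limma-voom had 23 higher and 9 lower members in common.

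Precision followed the reads behind a member. In the 405 members with 7 to 40 reads the median SD of log2 values between libraries was 0.758 in tsk-4 and 0.701 in Col, and in the 402 members with 448 reads or more it was 0.129 in tsk-4 and 0.137 in Col. The 398 tested members with 451 reads or more held 19 of the 28 higher calls and all 9 lower calls. Another 7 higher calls lay at 121 to 450 reads and 2 at 42 to 120 reads. Leaving out tsk-4 1, 2 or 3 gave 0, 1 and 0 higher and 0, 2 and 0 lower calls. Leaving out Col 1, 2 or 3 gave 1, 0 and 3 higher and as many lower calls. None of the 37 called members changed sign in these fits, and the smallest limma adjusted p of a member was 0.043 to 0.075. Fits on fewer libraries have less power, so the lost calls do not show that single libraries carried them. In these fits 174 to 208 members had an unadjusted limma p under 0.05, beside 225 in the fit on all libraries. On reads, limma-voom without each library in turn gave 24 to 41 higher and 23 to 63 lower calls. These included 17 to 21 of the 28 higher calls and all 9 lower calls made on TPM.

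**Figure D4:**
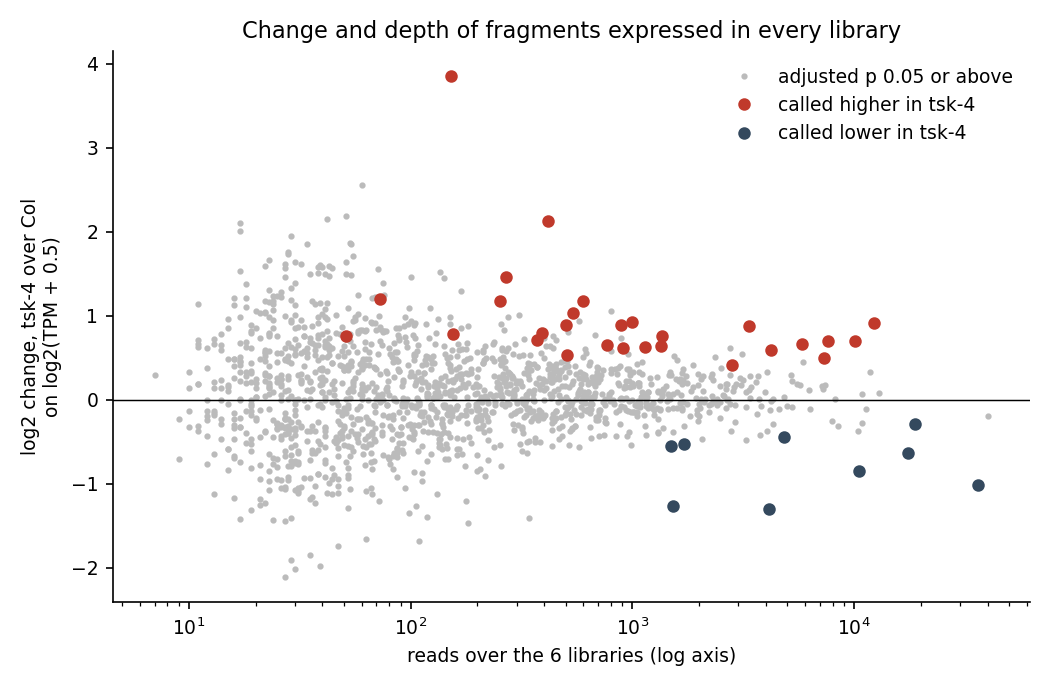
Log2 change of tsk-4 over Col on log2(TPM + 0.5) against reads over the 6 libraries (log axis), with a point for each of the 1594 tested members; red and dark points mark those called higher and lower. The spread of changes narrows with reads, and the calls lie in members with more reads, the lower ones all at 451 reads or more.

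Among members called higher, those with the largest changes after SADHU3-2 were short fragments of 96 to 352 bp, with AT5G20880 among them the longer exception. Larger estimates that did not pass the test also occurred, such as 1.60 for AT1TE28830 (5327 bp; 32 reads in tsk-4 and 7 in Col; limma adjusted p = 0.25), named after its values were seen. AT2TE78320 (167 bp) measured 1063, 799.6 and 814 TPM in tsk-4 and 245, 201 and 166 TPM in Col, a log2 change of 2.13 ± 0.19 (limma adjusted p = 0.014). AT4TE85890 (96 bp) measured 816, 837 and 1048.5 TPM in tsk-4 and 256, 363 and 371 TPM in Col, and its log2 change was 1.46 ± 0.19 (SE; limma adjusted p = 0.018). The groups were separate in both, by more than the spread within either genotype. AT4TE27030 (124 bp) measured 716, 538 and 622 TPM in tsk-4 and 308, 219 and 308 TPM in Col. AT1TE87340 (241 bp) measured 726, 718 and 553 TPM in tsk-4 and 363, 279 and 334 TPM in Col. AT2TE45520 (352 bp) measured 697, 867 and 902 TPM in tsk-4 and 388, 400.1 and 509 TPM in Col. Their log2 changes were 1.17, 1.03 and 0.93 with limma adjusted p of 0.027, 0.026 and 0.033, and quantile normalization ended the call of AT2TE45520 (limma adjusted p = 0.080). AT5TE78560 (101 bp), with 259, 189 and 220.03 TPM in tsk-4 and 94.7, 89.5 and 104 TPM in Col, rose by a log2 change of 1.197 (limma adjusted p = 0.025). It rested on 51 reads in tsk-4 and 22 in Col and was not called on reads (limma-voom adjusted p = 0.17).

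A long member stood out among the other higher calls and is named after its values were seen. AT3TE69475 had an inferred length of 14302 bp and 12305 reads, and it averaged 248 ± 13.2 TPM in tsk-4 and 132 ± 11.8 TPM in Col (SD, n = 3 each). Its log2 change was 0.91 ± 0.15 (SE; limma adjusted p = 0.029).

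The members called lower were abundant ones, all 9 among the 399 tested members with the highest mean level. AT2TE18115 (174 bp) measured 31572, 27433 and 31651 TPM in tsk-4 and 66147, 59126 and 58221 TPM in Col, a log2 change of -1.02 ± 0.08 (limma adjusted p = 0.014). It held 11923 reads in tsk-4 and 24077 in Col, and under quantile normalization its log2 change was -0.49, still called. It was the second highest member on average and the one called member in segment 4 of the numbering. AT4TE54820 (484 bp) measured 1184, 946 and 1132 TPM in tsk-4 and 2946, 2493 and 2587 TPM in Col, a log2 change of -1.30 ± 0.12 (limma adjusted p = 0.014). AT4TE69880 (47 bp) measured 4529, 3739.97 and 4116 TPM in tsk-4 and 7468, 9346 and 13711 TPM in Col, with a wide spread in Col (log2 change -1.26 ± 0.22, limma adjusted p = 0.034). Each of these lay lower in every tsk-4 library than in any Col library.

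Smaller falls came from members of chromosomes 3, 4 and 5. AT4TE67650 (310 bp) measured 5425, 4857 and 5680.1 TPM in tsk-4 and 10125, 9877 and 8770.2 TPM in Col, a log2 change of -0.85 (limma adjusted p = 0.016). AT3TE32730 (436 bp) measured 7413, 6222 and 7244 TPM in tsk-4 and 11330.5, 9826 and 11235 TPM in Col, a log2 change of -0.63 (limma adjusted p = 0.024). Both kept the genotypes apart. AT5TE27225, AT5TE03030 and AT5TE11920 averaged 2836, 1838 and 4183 TPM in tsk-4 and 4143, 2659 and 5715 TPM in Col. Their log2 changes were -0.55, -0.53 and -0.45 with limma adjusted p of 0.024, 0.024 and 0.028. Quantile normalization ended the calls of AT4TE69880 and AT3TE32730 (limma adjusted p = 0.055 and 0.11). The 8 named members were the largest falls among those called by limma, and limma-voom called each of them as well. A larger estimate of -1.47 in AT1TE25675, named after its values were seen, did not pass limma (adjusted p = 0.18) and passed limma-voom (adjusted p = 0.0039).

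**Figure D5:**
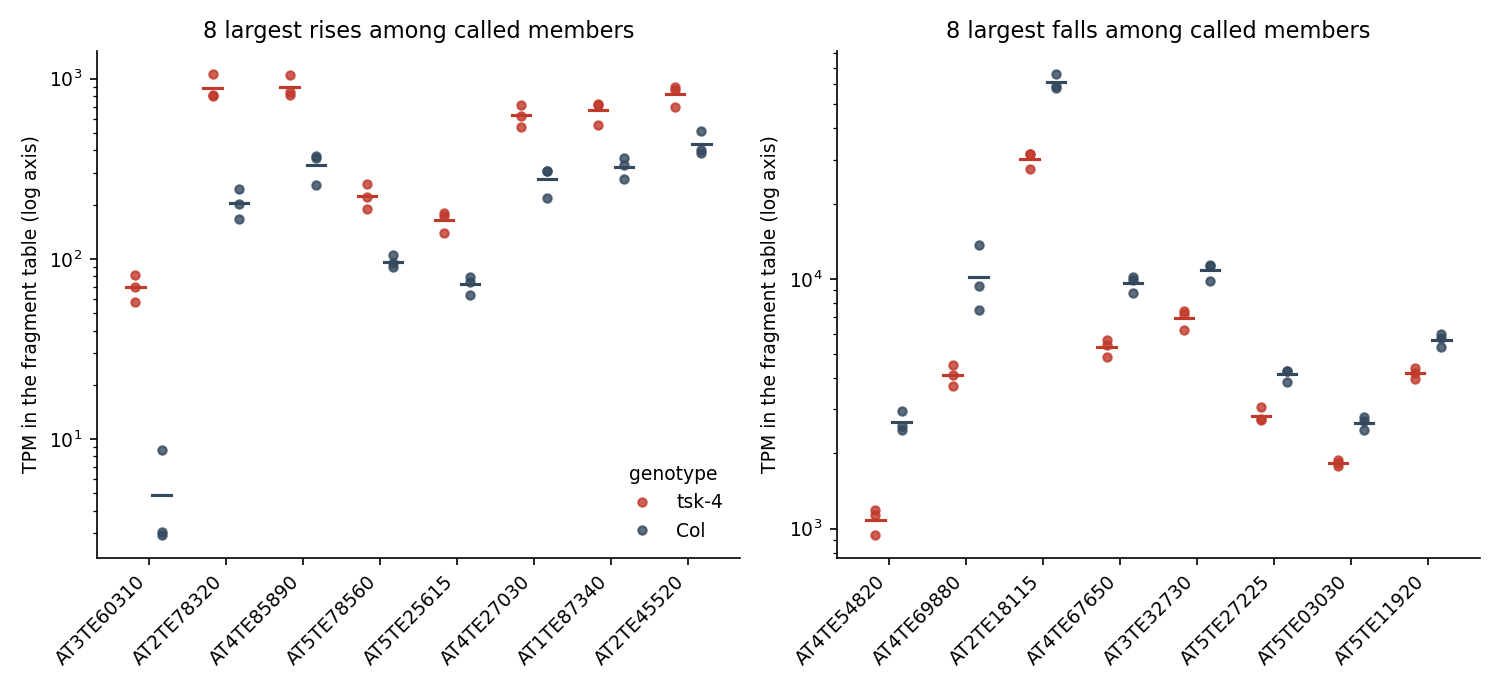
TPM in the fragment table (log axis) of the 8 called members with the largest rises and the 8 with the largest falls, with a point for each library, tsk-4 left of Col, and a bar at the mean. No member shows an overlap of the genotypes, and the falling members lie between 946 and 66147 TPM.

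The 8 members with the highest mean level held different directions. AT4TE59630 (192 bp) was the highest, with 42214, 44590.4 and 42287 TPM in tsk-4 and 48927, 49445 and 49406 TPM in Col. Its groups were separate but its log2 change of -0.20 did not pass the limma test (adjusted p = 0.082). It passed on reads (limma-voom adjusted p = 4.3e-09). AT1TE90210 (58 bp) averaged 34242 ± 2045 TPM in tsk-4 and 44649 ± 5425 TPM in Col (log2 change -0.38, limma adjusted p = 0.14). AT3TE95080 (150 bp) fell by 0.29 on the log2 scale, with 24915 ± 1268 TPM in tsk-4 and 30515.5 ± 786 TPM in Col (limma adjusted p = 0.048). The other highly read members lay above Col. AT2TE73080 (73 bp), AT5TE25390 (135 bp) and AT1TE59245 (72 bp) rose, with means of 25926, 20454 and 15578 TPM in tsk-4 and 18434, 12585 and 10316 TPM in Col. Their log2 changes were 0.49, 0.70 and 0.59 with limma adjusted p of 0.016, 0.019 and 0.017. Quantile normalization ended the calls of AT5TE25390 (log2 change 0.0432, limma adjusted p = 0.73), AT2TE73080 (0.28, adjusted p = 0.37) and AT3TE95080 (-0.28, adjusted p = 0.37), and left AT1TE59245 called at 0.33. AT1TE25360 (73 bp) averaged 20485 ± 1714 TPM in tsk-4 and 15043 ± 2147 TPM in Col and did not pass (log2 change 0.45, limma adjusted p = 0.14). Under quantile normalization AT4TE59630 and AT1TE90210 were called in the opposite direction, higher in tsk-4 (log2 changes of 0.32 and 0.17, limma adjusted p = 0.010 and 0.043). AT1TE25360 changed sign as well (-0.0432, limma adjusted p = 0.73). Quantile normalization gives the same rank the same value in every library, so for these highest members it compared ranks rather than sizes of TPM. In TPM, AT4TE59630 and AT1TE90210 were lower in every tsk-4 library than in any Col library. The 10 highest members together held 23.7% ± 0.395 of the table's TPM in tsk-4 and 26.4% ± 0.413 in Col.

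At the edge of the rule stood long fragments with few reads and very short ones just outside it. AT4TE12615 (17082 bp) had 6 reads in tsk-4 and 7 in Col. AT2TE08110 (15658 bp) had 14 reads in tsk-4 and 6 in Col, and AT3TE57780 (14074 bp) had 8 in tsk-4 and 6 in Col. All were under the level tested on TPM. Of the fragments above 0 in exactly 5 libraries, AT3TE06055 (21 bp) was at 0 in Col 1, AT1TE84845 (26 bp) at 0 in Col 3 and AT1TE56410 (25 bp) at 0 in tsk-4 1. These held 19, 22 and 13 reads in tsk-4 and 7, 5 and 11 in Col. A fragment of such size thus passed or missed the rule by single reads.

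Estimated changes of neighbouring members in the numbering were only weakly related. Across 281 pairs of neighbouring members the log2 changes correlated with r = 0.199 and rho = 0.211, across 627 pairs that lay 2 to 5 places apart in the list of fragments with r = 0.123 and across 2061 pairs 6 to 20 places apart with r = 0.0259. The pairs share the same 6 libraries, so these are descriptions, and whether neighbours lie in one transcript was not tested.

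Genes known to act on TE silencing were followed in the gene table. Some of them set silencing marks and others act in different ways, while ROS1 and IBM1 remove marks. Of 25 listed genes 24 were tested, and 5 were called higher and 2 lower (CMT2 and ROS1) by limma, beside 14.9% higher and 4.96% lower over all 19574 tested genes. CMT2, which methylates CHH sites in heterochromatin, averaged 14.7 ± 0.995 TPM in tsk-4 and 20.9 ± 0.822 TPM in Col (log2 change -0.49, limma adjusted p = 0.0054). ROS1, a DNA demethylase, averaged 12.1 ± 2.49 TPM in tsk-4 and 20.2 ± 1.34 TPM in Col (log2 change -0.74, limma adjusted p = 0.0074). The linker histones H1.1 and H1.2 were higher, with 271 ± 23.9 and 242 ± 8.65 TPM in tsk-4 and 209 ± 7.78 and 199 ± 5.35 TPM in Col (limma adjusted p = 0.0081 and 0.0072). The other higher calls were DCL3, HTA7 and VIM1 (log2 changes 0.64, 0.36 and 0.32, limma adjusted p = 0.018, 0.021 and 0.046). Median-ratio scaling kept the call of DCL3 (limma adjusted p = 0.032) and ended those of HTA7 and VIM1 (0.063 and 0.12). The CG methyltransferase MET1 and the remodeller DDM1 had log2 changes of 0.10 and 0.21 (limma adjusted p = 0.43 and 0.16). Median-ratio scaling gave 3 higher and 3 lower calls and quantile normalization 1 and 3. The list's median log2 change was 0.18, beside 0.08 over all tested genes, and that of all tested genes was -0.0027 under median-ratio scaling.

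Markers of leaf tissue moved with the genotype in the same libraries. All 4 leaf and cotyledon markers, for the antenna and Rubisco, were lower in tsk-4, with a summed level of 41723 to 42919 TPM in tsk-4 and 54888 to 56479 TPM in Col. The root markers PRP3 and EXPA18, 2 of 4, were higher, and EXPA7 and COBL9 were not called (limma adjusted p = 0.36 and 0.99). All 4 root markers together had a summed level of 115 to 132 TPM in tsk-4 and 96.2 to 97.0 TPM in Col. The 4 seed markers had limma adjusted p between 0.17 and 0.99, and the sum over 5 pollen markers was 0.511 to 0.997 TPM in tsk-4 and 0.739 to 1.86 TPM in Col, with HTR10, VGD1 and DUO1 at 0. The part of these differences in the changes of members was not tested. In RNA from whole seedlings, fewer cells of a type and less RNA per cell cannot be told apart.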

How the data were processed

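Total RNA of 7-day seedlings was sequenced in 3 tsk-4 and 3 Col libraries, grouped by sample title. The authors deposited TPM tables for genes, TE genes and TE fragments, each summing to 1000000 per library, so tests stayed within a table. HTSeq 0.11.2, fastp 0.20.1, HISAT2, DESeq2 1.26.0 and the genome build TAIR10 are named, per the submitters' processing notes. How strand and multiply mapped reads were handled is not given in the sources used here, so values of near-identical TE copies are uncertain.

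From the deposited TPM, whole reads were recovered for 100% of fragment values (within 0.02 reads), with the smallest length that fits all libraries taken as the fragment's length. Lengths were chosen to make the values whole, so this share is not by itself a check of them. For TE genes, whose spans are annotated, the share was 99.76% to 100%. Tests used limma 3.58.1 in R 4.3.3 on log2(TPM + 0.5) with genotype only, which understates changes of low fragments; limma-voom used recovered reads (at least 10), with library sizes from the gene table. Longest frames were sought on the locus strand with Python 3.11.15, and loci were aligned with Biopython 1.88. Members, lists and tests were chosen with earlier results of these data known. Named fragments were the 8 members with the highest mean, the 8 called members with the largest rise and the 8 with the largest fall whose genotypes did not overlap, and 3 on each side of the rule's edge; matched TE genes were named after their values were seen. Alternatives were other scalings, pseudocounts, filters, a replicate block and leaving out each library.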

Additional observations from a re-analysis of the deposited data

How the results depend on the processing

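Members called higher and lower numbered 28 and 9 as reported, and all tested fragments 77 and 22. Median-ratio scaling gave 23 and 11 members and 70 and 24 fragments, and quantile normalization 22 and 8 members and 54 and 20 fragments. Rescaling to gene reads gave 24 and 16 members and 71 and 29 fragments. A pseudocount of 0.1 gave 29 and 9 members and 96 and 23 fragments, and a pseudocount of 1 gave 28 and 8 members and 70 and 20 fragments. With no filter 5 and 3 members and 7 and 5 fragments were called, and a filter at 5 TPM gave 27 and 9 members but 43 and 15 fragments. limma-voom gave 42 and 47 members and 90 and 47 fragments. None of the 37 called members changed sign under any of these, and 19 were called under median-ratio, quantile, gene-table and read-based fits alike. Of 20 named fragments that were called, 7 stayed called by limma with no filter and 0 with replicate number as a block. The members' median log2 change of 0.082 was -0.0046 under median-ratio scaling, -0.0456 under quantile normalization and -0.021 both after rescaling to the gene table and on reads. The silencing genes, 5 higher and 2 lower, were 3 and 3 under median-ratio scaling, 1 and 3 under quantile normalization and 5 and 4 on reads.

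Without 1 library each, members called higher ranged between 0 and 3 and lower between 0 and 3. All fragments called ranged between 0 and 9 and between 0 and 3, and silencing genes higher between 2 and 6. The median ranged between 0.0694 and 0.0921, and the number of fragments above 0 in all libraries left between 1651 and 1689. In each of these fits, between 174 and 208 members had an unadjusted limma p under 0.05. At 1 TPM or more in all libraries 1549 members remained. limma-voom without each library gave 27, 29 and 31 higher and 23, 26 and 30 lower members without tsk-4 1, 2 and 3, and 31, 24 and 41 higher and 36, 26 and 63 lower without Col 1, 2 and 3 (chosen after seeing the data).

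With replicate number as a block, 0 members and 0 fragments were called higher or lower by limma (smallest adjusted p of a member 0.1025; 167 members at an unadjusted p under 0.05; silencing genes 4 and 2), and limma-voom with the block gave 36 and 37 (chosen after seeing the data). Deviations of same-numbered libraries correlated at -0.051, -0.0052 and -0.021 over fragments and at 0.12, -0.087 and -0.11 over genes, so a shared number was not taken as a pairing. Under quantile normalization, which compares ranks at such high levels, AT4TE59630 had a log2 change of 0.32, AT1TE90210 0.17 and AT1TE25360 -0.0432. Without 1 library each AT1TE56410 ranged between -3.58 and 1.17, the highest without tsk-4 replicate 1. The causes were not tested. Members that overlap a gene and members that do not were not run apart, since fragment positions were not used here. Depth limits the 405 members with 7 to 40 reads.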
